A study of Danio rerio with 8 samples.

Results

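The genes described here are 9 members of the p53 pathway and of the caspase family in larval zebrafish (Danio rerio): mdm2, cdkn1a, ccng1, baxa, casp3a, casp3b, casp8, gadd45aa and gadd45ba. They were chosen by symbol, and all 9 were found among the 25725 genes listed for each library. RNA from 8 samples, whose tissue is given as heart, was sequenced at 5 days postfertilization. The 4 control samples (Ctrl 1 to 4) came from larvae kept in the solvent DMSO. The 4 TCDD samples (TCDD 1 to 4) came from larvae exposed to the dioxin TCDD, which binds the aryl hydrocarbon receptor, from 2 hours to 5 days postfertilization. No strain, transgene, TCDD concentration or number of larvae per sample is given in the sources used here. Nothing in them says whether samples of a group came from separate clutches, so each p value rests on the spread among these 8 samples alone, which may be technical.

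The transcription factor p53 is held at low levels by the ubiquitin ligase Mdm2, which is itself a p53 target. After DNA damage or other stress p53 is stabilised as a protein. It then raises transcripts for cell cycle arrest (cdkn1a, ccng1), stress signalling and repair (GADD45A) and mitochondrial cell death (bax). Released cytochrome c then assembles with Apaf1 and caspase 9, which cleaves the executioner caspases such as caspase 3, whereas death receptors act through caspase 8. Caspases are made as inactive precursors, so transcript levels do not show the activity of the enzyme, and its protein was not measured here.

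Total estimated counts per library ran from 14048563 to 15183023, and all 9 members passed the filter on low counts, with 85 to 5867 counts per library. None of the 72 member counts had a fraction, whereas 11.43 to 11.98% of all genes in a library did. The exposure label was borne out by the AHR target gene cyp1a, at 101 to 164 counts scaled to a library of 1e6 (CPM) in the control samples and 6173 to 9744 CPM in the TCDD samples. All 12 cardiomyocyte markers were detected, but their summed CPM (1275 to 1553 in the control samples, 915.7 to 1350 in the TCDD samples) was below that of liver markers (31530 to 55210 and 35000 to 42160 CPM). It was also below that of skeletal muscle (10040 to 15190 and 9265 to 14620), skin (13170 to 15930 and 10680 to 14510) and pancreas markers (6813 to 11840 and 6293 to 10110). Of the cell types looked at, only leukocyte markers summed to less (205.2 to 242.7 and 214.7 to 587.8). The values below are therefore those of the sampled material, and in bulk RNA fewer cells of a type and less RNA per cell cannot be told apart. Summed CPM of 10 cartilage markers (8356 to 11570 and 6247 to 7443) and of 12 erythrocyte markers (4381 to 6625 and 2858 to 4224) were lower in all TCDD samples than in any control sample, as were 10 intestine markers (5255 to 6225 and 3922 to 4861), and their part in the results below was not tested. Ctrl 1 and TCDD 2 lay apart from the other 6 samples on the second principal component (59.9 and 28.95, against -25.0 to -0.177).

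Of the 9 members, casp3b and gadd45aa rose with TCDD, gadd45ba fell, and 6 did not pass the test (edgeR's quasi-likelihood test with Benjamini-Hochberg adjustment over all genes tested, called at an adjusted p under 0.05). The caspase 3 paralog casp3b, at 1.87 times its control level, and gadd45ba, at 0.517 times its control level, changed most among the called members. Over the 20522 genes tested, 5.72% were called, 2.99% higher and 2.73% lower in TCDD. Without both Ctrl 1 and TCDD 2 only casp3b was called. The count of all called genes, 1174, was 1854 without Ctrl 2, 523 without Ctrl 3, 652 without TCDD 1, 579 without TCDD 2, 755 without TCDD 3 and 616 without both Ctrl 1 and TCDD 2. In 4 members (casp3b, gadd45aa, gadd45ba and baxa) the CPM of the 2 groups did not overlap, as in 14.0% of all genes tested. The members were proposed with results of these data known, so their count is a description.

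**Figure D1:**
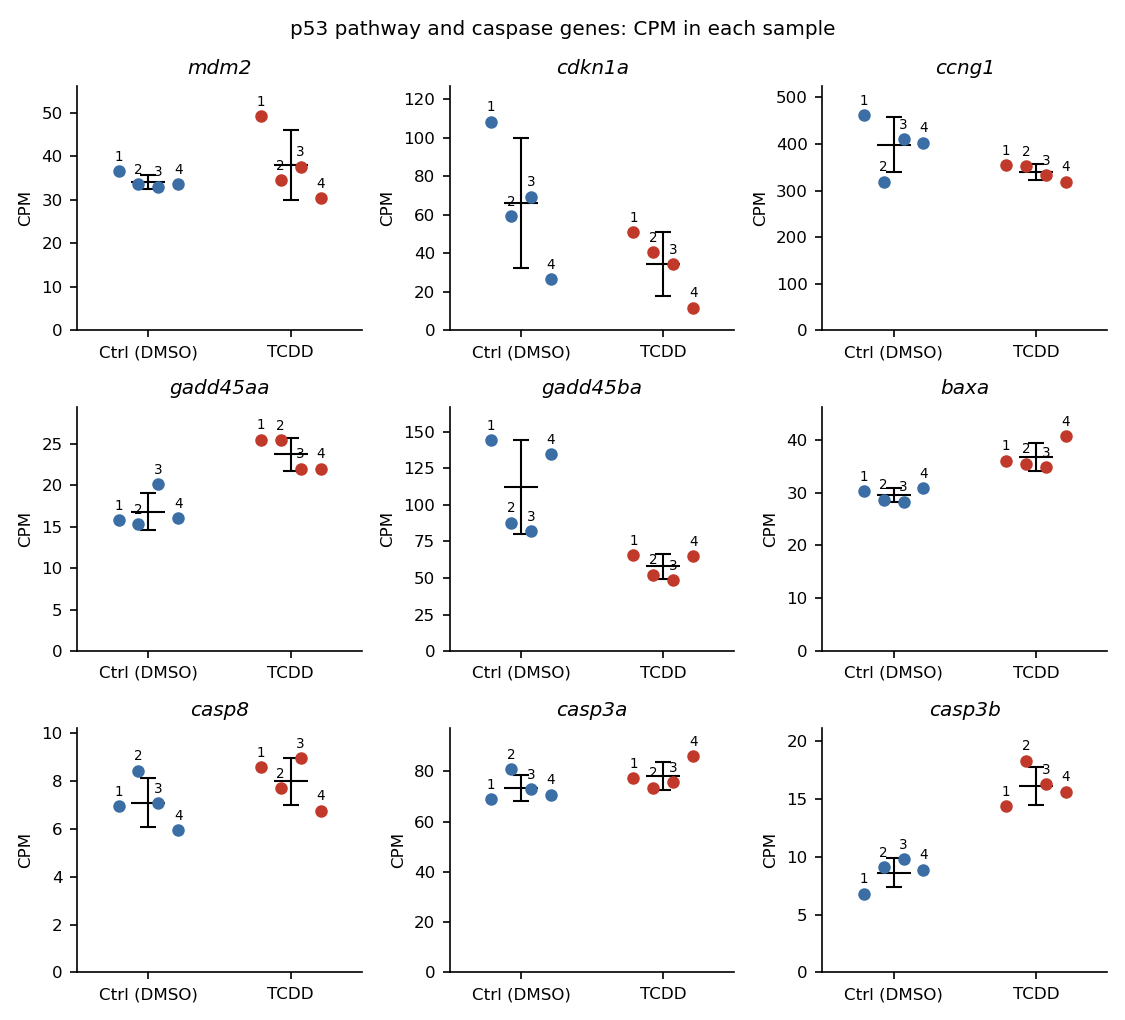
CPM (vertical axes, from 0) of the 9 genes in each control and TCDD sample, numbered 1 to 4, with the mean and SD of each group in black. The groups do not overlap for gadd45aa, gadd45ba, baxa and casp3b, and cdkn1a has the widest spread within groups relative to its mean.

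The genes of the p53 inhibitors Mdm2 and Mdm4 did not pass the test. The ubiquitin ligase gene mdm2 (NCBI gene 30637) held 36.6, 33.6, 33.05 and 33.6 CPM in Ctrl 1 to 4. In TCDD 1 to 4 it held 49.2, 34.6, 37.6 and 30.4 CPM. The groups overlapped, since TCDD 1 and TCDD 3 lay above and TCDD 4 below every control sample. The mean of mdm2 was 34.2 ± 1.60 (SD) CPM in the control samples and 38.0 ± 8.07 CPM in the TCDD samples (log2 fold change, TCDD minus control, 0.15 ± 0.14 (SE), n = 4 samples per group here and throughout, edgeR adjusted p = 0.570), and without TCDD 1 the log2 fold change was 0.003. The paralog mdm4, whose product binds p53 without degrading it on its own, was at 48.8 ± 2.99 and 46.5 ± 2.76 CPM (-0.07 ± 0.10, edgeR adjusted p = 0.712), a sign that turned with library size alone (0.056) and on the TPM scale (0.246).

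Of 19 regulators of p53, a list that held mdm4 but not mdm2, 0 passed by edgeR and by DESeq2, with 4 at an unadjusted p under 0.05, as were 4508 of the 20522 genes tested. The smallest p values belonged to tp63 (66.2 ± 9.92 and 83.7 ± 6.71 CPM; 0.34 ± 0.12, edgeR adjusted p = 0.131), a p53 relative that marks basal epidermis, and to usp7 (42.3 ± 3.52 and 49.6 ± 1.64 CPM; 0.23 ± 0.10, edgeR adjusted p = 0.187), whose product removes ubiquitin from Mdm2 and p53. Next came the damage kinase gene atm (-0.36 ± 0.16, edgeR adjusted p = 0.213) and the p53 relative tp73 (0.60 ± 0.27, edgeR adjusted p = 0.226). The call of tp63 was reached without Ctrl 2 (edgeR adjusted p = 0.0380). The median log2 fold change of the list was 0.04, against 0.00 over all genes tested.

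The cyclin-dependent kinase inhibitor gene cdkn1a (NCBI gene 100151416), the p21 gene through which p53 halts the cell cycle, was lower on average in TCDD samples but did not pass the test. Ctrl 1 to 4 held 108, 59.16, 69.3 and 26.7 CPM of cdkn1a. TCDD 1 to 4 held 51.0, 40.5, 34.4 and 11.7 CPM. The groups overlapped, because Ctrl 4 was below 3 of the 4 TCDD samples, and TCDD 4 was the lowest of all 8. The means were 65.9 ± 33.6 and 34.4 ± 16.6 CPM (log2 fold change -0.94 ± 0.53, edgeR adjusted p = 0.353). The sign was negative in each of the 8 fits that left out 1 sample, from -1.20 (without Ctrl 4) to -0.59 (without Ctrl 1), and 0 of them passed. A fit with replicate numbers as a term, given in the last section, did call cdkn1a. Nothing in the sources used says that these numbers pair the samples. The SD of cdkn1a within groups, 0.864 on the scale of log2(CPM + 1), was above that of 99.4% of the 14221 genes whose mean reached 5 CPM, whose median SD was 0.186.

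The related inhibitor gene cdkn1ba, a p27 gene that is not a classical p53 target, rose from 39.0 ± 2.402 to 88.7 ± 12.2 CPM (log2 fold change 1.19 ± 0.12, edgeR adjusted p = 0.000302). Its values in the control samples were 42.0, 38.5, 36.2 and 39.2 CPM, and in the TCDD samples 92.0, 92.3, 99.4 and 71.2 CPM. The groups did not overlap, and cdkn1ba passed in all 8 fits that left out 1 sample, with an adjusted p of at most 0.00363. Over all genes tested 5.72% were called. In the list of 18 tested CDK inhibitors and cyclins cdkn1ba rose, 0 fell and 17 did not pass, and the median log2 fold change was 0.01. Among those that did not pass were the mitotic cyclin gene ccnb1 (14.3 ± 2.499 and 19.4 ± 3.76 CPM; 0.44 ± 0.17, edgeR adjusted p = 0.151) and the p57 genes cdkn1ca (-0.26 ± 0.11, edgeR adjusted p = 0.175) and cdkn1cb (-0.49 ± 0.25, edgeR adjusted p = 0.273). Of 16 markers of dividing cells 0 passed by edgeR (1 at an unadjusted p under 0.05, beside the 4508 of 20522 genes given above), and their summed CPM was 1042 to 1151 in the control samples and 939 to 1247 in the TCDD samples.

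The cyclin G1 gene ccng1 (NCBI gene 171473), a p53 target whose product takes part in feedback through Mdm2, had the highest level of the members in TPM, which is per transcript length. It held 461, 319, 410 and 403 CPM in Ctrl 1 to 4 and 355, 352, 332 and 319 CPM in TCDD 1 to 4. The control samples spread more widely than the TCDD samples, and Ctrl 2 lay at the level of TCDD 4. The means were 398 ± 58.7 and 340 ± 16.8 CPM (log2 fold change -0.23 ± 0.13, edgeR adjusted p = 0.328). On the deposited TPM scale, where the median of all genes shifted by 0.31, the value of ccng1 was 0.10 (limma adjusted p = 0.523). Ctrl 1, the highest control sample in CPM, was the lowest on that scale (209.98 TPM). The paralog ccng2 was at 51.2 ± 4.86 and 54.7 ± 5.62 CPM (0.09 ± 0.11, edgeR adjusted p = 0.667).

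The GADD45 genes encode small proteins that bind stress kinases, cell cycle kinases and repair factors, and they went both ways. The member gadd45ba (NCBI gene 406304) held 144, 87.8, 82.0 and 135 CPM in Ctrl 1 to 4. In TCDD 1 to 4 it held 65.6, 52.45, 48.8 and 65.0 CPM. Every TCDD sample lay below every control sample in CPM, and Ctrl 1 and Ctrl 4 were well above Ctrl 2 and Ctrl 3. In deposited TPM the order differed, with Ctrl 1 (101.76 TPM) level with Ctrl 2 (100.92). There TCDD 4 (78.44 TPM) lay above Ctrl 3 (77.06), so the groups overlapped on that scale. It fell from 112 ± 31.8 to 58.0 ± 8.62 CPM (log2 fold change -0.95 ± 0.19, edgeR adjusted p = 0.0150). It passed in each of the 8 fits that left out 1 sample (adjusted p = 0.00842 to 0.0465), and its call was lost without both Ctrl 1 and TCDD 2 (-0.77, edgeR adjusted p = 0.0724).

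The member gadd45aa (NCBI gene 393548), whose human counterpart GADD45A is a well-known p53 target, moved in the opposite direction. It held 15.8, 15.3, 20.1 and 16.1 CPM in Ctrl 1 to 4 and 25.5, 25.4, 22.01 and 22 CPM in TCDD 1 to 4. Every TCDD sample lay above every control sample, of which Ctrl 3 was the highest. It rose from 16.8 ± 2.22 to 23.7 ± 2.00 CPM (log2 fold change 0.50 ± 0.12, edgeR adjusted p = 0.0366). Its call was lost without Ctrl 1 (edgeR adjusted p = 0.0583), Ctrl 2 (0.0626), Ctrl 4 (0.0777), TCDD 1 (0.112), TCDD 2 (0.117), TCDD 3 (0.0702) or both Ctrl 1 and TCDD 2 (0.143). The log2 fold change stayed between 0.43 and 0.59 in all of those fits and in those without Ctrl 3 or TCDD 4, in which the call was kept.

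Of the other GADD45 genes, gadd45gb.1 fell from 24.02 ± 5.06 to 12.6 ± 4.41 CPM (-0.93 ± 0.23, edgeR adjusted p = 0.0402), with no overlap between the groups. Its deposited count had a fraction in all 8 libraries, so reads shared with another copy may bear on it. Its call was lost without Ctrl 3 (edgeR adjusted p = 0.102), Ctrl 4 (0.0892), TCDD 1 (0.0673), TCDD 2 (0.0896), TCDD 3 (0.109) or both Ctrl 1 and TCDD 2 (0.053). Offsets for transcript length (0.0859) and scaling by library size alone (0.10) also ended it, as did limma on TPM (0.146). The paralog gadd45bb was at 43.7, 25.6, 26.6 and 41.1 CPM in the control samples and 17.6, 14.6, 13.8 and 27.8 CPM in the TCDD samples (-0.89 ± 0.24, edgeR adjusted p = 0.0575, DESeq2 adjusted p = 0.00762). TCDD 4 alone overlapped the control samples of gadd45bb, and without it the adjusted p was 0.00921, while without Ctrl 2 it was 0.0380. The genes gadd45ab (36.8 ± 9.71 and 31.1 ± 1.62 CPM; -0.24 ± 0.16, edgeR adjusted p = 0.406) and gadd45ga (30.45 ± 4.47 and 26.6 ± 4.16 CPM; -0.19 ± 0.14, edgeR adjusted p = 0.456) did not pass, and both were positive on the TPM scale (0.105 and 0.116).

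The make-up of the family was compared within each library, which needs no scaling between libraries. The share of gadd45aa in the summed TPM of the 6 GADD45 genes was 5.36, 7.39, 9.24 and 5.47% in the control samples and 14.3, 16, 14.1 and 11.3% in the TCDD samples. That of gadd45ba was 45.8, 39.8, 35.3 and 43.0% in the control samples and 34.6, 30.9, 29.3 and 31.4% in the TCDD samples. Neither share overlapped between the groups, and the two-sided exact permutation test gave p = 0.0286 for each, which 4 against 4 samples cannot go below, and 0.0763 after adjustment over the 8 paralog shares tested. The test of shares was added after the values were seen and is not independent of the calls of gadd45aa and gadd45ba. The shares within a library also depend on each other, since a smaller share of gadd45ba leaves a larger one to the rest.

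**Figure D2:**
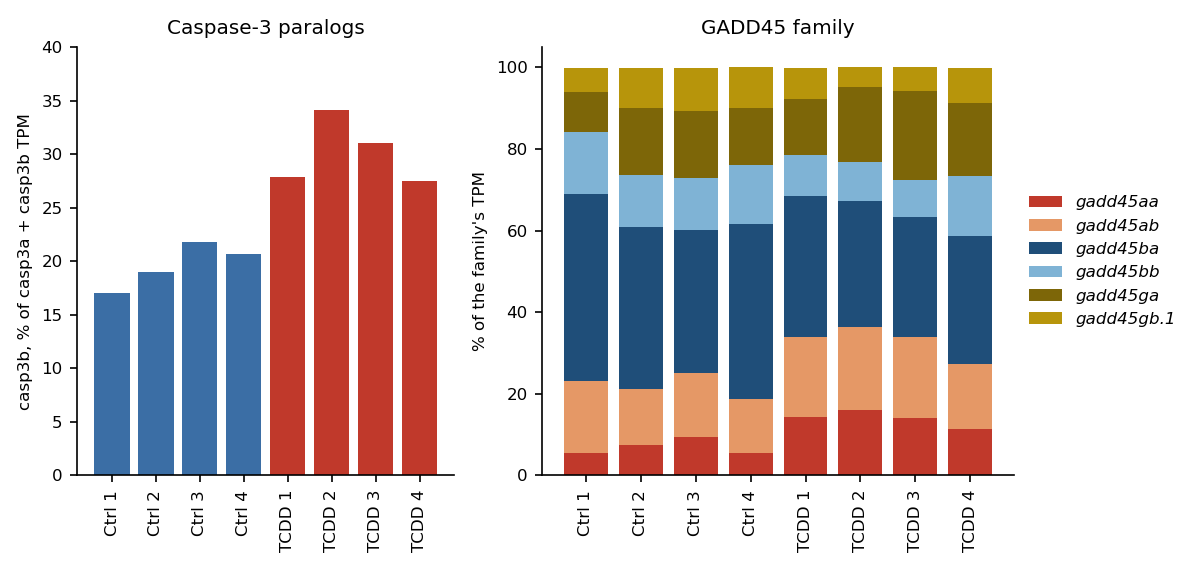
Left, TPM of casp3b as a percentage of the summed TPM of casp3a and casp3b in each sample (blue bars, control; red bars, TCDD). Right, percentage of the summed TPM of the 6 GADD45 genes held by each of them; gadd45aa is larger and gadd45ba smaller in every TCDD sample than in any control sample.

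The list of 28 tested p53 targets of arrest, repair and stress handling took in the whole GADD45 family, not only gadd45aa. In it gadd45aa rose, 4 fell (gadd45ba, btg2, plk2b and gadd45gb.1) and 23 did not pass. Over all genes tested 2.99% were called higher and 2.73% lower. The median log2 fold change of the list was -0.01. The antiproliferative gene btg2 held 423, 288, 332 and 549 CPM in Ctrl 1 to 4 and 234, 179, 177 and 245 CPM in TCDD 1 to 4, without overlap (-0.93 ± 0.20, edgeR adjusted p = 0.0199). The polo-like kinase gene plk2b fell from 67.2 ± 4.81 to 49.0 ± 3.35 CPM (-0.46 ± 0.10, edgeR adjusted p = 0.0201), also without overlap. The call of btg2 was lost without TCDD 2 (edgeR adjusted p = 0.0671), TCDD 3 (0.0639) or both Ctrl 1 and TCDD 2 (0.111), and with limma on TPM (0.0608). That of plk2b was lost without Ctrl 3 (0.0698), TCDD 1 (0.056), TCDD 2 (0.068), TCDD 4 (0.050) or both Ctrl 1 and TCDD 2 (0.084), with library size alone (0.0864) and with limma on TPM, where the log2 fold change of plk2b was -0.14 (0.483). The list's count of 5 was 3 without Ctrl 3 or Ctrl 4, 2 without TCDD 1 or TCDD 3, 1 without TCDD 2 and 0 without both Ctrl 1 and TCDD 2. The count of all called genes, 1174, fell in the same fits, in that order to 523, 912, 652, 755, 579 and 616.

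Among the genes of mitochondrial cell death, baxa (NCBI gene 58081), which encodes the pore-forming protein Bax, was higher in every TCDD sample but did not pass the test. It held 30.3, 28.6, 28.3 and 30.9 CPM in Ctrl 1 to 4 and 36.0, 35.4, 34.8 and 40.6 CPM in TCDD 1 to 4. The groups did not overlap, and TCDD 4 was the highest. The means were 29.5 ± 1.245 and 36.7 ± 2.64 CPM (log2 fold change 0.31 ± 0.10, edgeR adjusted p = 0.0794). DESeq2, which called 10.3% of the genes it adjusted, called baxa (adjusted p = 0.0304), as did edgeR with library size alone (0.0472) and limma on TPM (0.0321), although these last shift the median of all genes by 0.13 and 0.31. Those were the only 3 of 11 other settings that called baxa. It passed in 0 of the 8 fits that left out 1 sample (edgeR adjusted p = 0.0933 to 0.208). The paralog baxb was at 4.24 ± 1.26 and 3.47 ± 0.375 CPM (-0.28 ± 0.22, edgeR adjusted p = 0.477) and positive on the TPM scale (0.064). In the summed TPM of baxa and baxb its share was 22.4 ± 5.11% and 16.2 ± 1.90% (exact permutation p = 0.0857, adjusted 0.137).

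Of 13 tested p53 targets of cell death, a list that held baxa, baxb and casp8, apaf1 rose, pmaip1 fell and 11 did not pass. Their median log2 fold change was 0.12, and 5.72% of all genes tested were called. The gene apaf1, which encodes the scaffold of the apoptosome, held 14.5, 18.6, 17.3 and 24.7 CPM in Ctrl 1 to 4 and 25.5, 30.2, 28.8 and 35.25 CPM in TCDD 1 to 4, without overlap (0.67 ± 0.16, edgeR adjusted p = 0.0337). The gene pmaip1 encodes the BH3-only protein Noxa, which opposes the survival protein Mcl1. It held 13.2, 20.2, 20.9 and 22.8 CPM in the control samples and 9.99, 10.5, 14.1 and 10.9 CPM in the TCDD samples (-0.76 ± 0.18, edgeR adjusted p = 0.0276), and the groups overlapped by TCDD 3 and Ctrl 1. The death receptor gene fas was at 2.04 ± 0.507 and 3.19 ± 0.0458 CPM (0.65 ± 0.21, edgeR adjusted p = 0.0902; 0.0409 with library size alone).

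Both calls of that list were sensitive to single samples. The call of apaf1 was lost without Ctrl 2 (edgeR adjusted p = 0.0552), Ctrl 3 (0.112), TCDD 1 (0.0505), TCDD 2 (0.0923), TCDD 3 (0.0813), TCDD 4 (0.089) or both Ctrl 1 and TCDD 2 (0.104). The call of pmaip1 was lost without Ctrl 3 (edgeR adjusted p = 0.0938), Ctrl 4 (0.0688), TCDD 1 (0.0924), TCDD 2 (0.0896) or TCDD 4 (0.0663), and under length offsets (0.0885), scaling by library size alone (0.0943) or limma on TPM (0.26). The list's count of 2 was 1 without Ctrl 2, Ctrl 4 or TCDD 3 and 0 without Ctrl 3, TCDD 1, TCDD 2 or TCDD 4. Over all genes, with 1174 calls in the main result, those fits called 1854, 912, 755, 523, 652, 579 and 965, in that order.

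In the BCL2 family, whose members guard or open the mitochondrial membrane, pmaip1 fell, 0 rose and 20 of 21 did not pass. The median log2 fold change was 0.08, and 5.72% of all genes tested were called. The survival gene mcl1a was at 213 ± 33.2 and 164 ± 11.3 CPM (-0.38 ± 0.13, edgeR adjusted p = 0.116), and bcl2l10 was at 74.7 ± 7.79 and 58.2 ± 3.43 CPM (-0.36 ± 0.10, edgeR adjusted p = 0.0670). Without Ctrl 2 both passed, with adjusted p = 0.0158 for mcl1a and 0.0224 for bcl2l10, and the family's count was 3. Over all genes 1854 were called in that fit, against 1174 in the main result. The family's count was 0 without Ctrl 3, Ctrl 4, TCDD 1, TCDD 2 or TCDD 4. In those fits 523, 912, 652, 579 and 965 of all genes were called.

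The clearest change among the members was that of casp3b (NCBI gene 566604), a gene of the executioner caspase 3. It held 6.79, 9.10, 9.78 and 8.87 CPM in Ctrl 1 to 4. In TCDD 1 to 4 it held 14.4, 18.3, 16.3 and 15.6 CPM. The lowest TCDD sample lay well above the highest control sample. It rose from 8.63 ± 1.29 to 16.1 ± 1.63 CPM (log2 fold change 0.90 ± 0.14, edgeR adjusted p = 0.00422), and it was called in all 8 fits that left out 1 sample and in all 11 other settings tried without the replicate number.

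Its paralog casp3a (NCBI gene 140621), the caspase 3 transcript with the higher TPM in every sample, did not pass. It held 68.8, 80.8, 72.9 and 70.7 CPM in the control samples and 77.2, 73.4, 75.6 and 85.9 CPM in the TCDD samples. The groups overlapped, with TCDD 4 alone above all control samples. The means were 73.3 ± 5.28 and 78.05 ± 5.45 CPM (log2 fold change 0.09 ± 0.10, edgeR adjusted p = 0.636). Within a library, casp3b made up 17.0, 19.0, 21.8 and 20.7% of the TPM of both paralogs in the control samples and 27.9, 34.1, 31.0 and 27.5% in the TCDD samples. The share did not overlap between the groups (exact two-sided permutation p = 0.0286, adjusted 0.0763 over the 8 shares). That p is the lowest this test can give with these samples. The test was added after the values were seen and is not independent of the casp3b call.

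The initiator caspase gene casp8 (NCBI gene 58022), which acts below death receptors, had the lowest level of the members in TPM. It held 6.95, 8.42, 7.06 and 5.94 CPM in the control samples and 8.57, 7.69, 8.94 and 6.75 CPM in the TCDD samples. The groups overlapped widely, although TCDD 1 and TCDD 3 lay above every control sample. The means were 7.09 ± 1.02 and 7.99 ± 0.976 CPM (log2 fold change 0.17 ± 0.15, edgeR adjusted p = 0.553). Its relatives casp10 (2.81 ± 0.602 and 4.05 ± 0.312 CPM; 0.53 ± 0.19, edgeR adjusted p = 0.131) and casp8l1 (0.768 ± 0.356 and 0.687 ± 0.165 CPM; edgeR adjusted p = 0.869) did not pass, and the sign of casp8l1 varied between settings.

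Of 14 tested caspase genes, casp3b and casp6b.1 rose, 0 fell and 12 did not pass, beside 5.72% called over all genes. The log2 fold change was above 0 in 12 of the 14, against 10263 of 20522 genes tested, and the median was 0.26 (0.39 with library size alone, where the median of all genes was 0.13, and 0.61 on the TPM scale, where it was 0.31). The executioner gene casp6b.1 held 2.08, 1.95, 1.26 and 2.37 CPM in the control samples and 3.58, 3.67, 4.002 and 4.31 CPM in the TCDD samples, without overlap (1.02 ± 0.21, edgeR adjusted p = 0.0162). It passed in all 8 fits that left out 1 sample (at most 0.0472). Reads of its neighbour in name, casp6b.2, which had at most 5 counts in a library, could be counted at the wrong copy.

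The inflammatory caspase gene caspa, whose product joins inflammasomes, was at 11.99 ± 2.399 and 17.9 ± 2.12 CPM (0.58 ± 0.16, edgeR adjusted p = 0.0537). It passed without Ctrl 2 (edgeR adjusted p = 0.0199), with DESeq2 (0.0145), under length offsets (0.033) and under scaling by library size alone (0.0439). Markers of macrophages and neutrophils summed to 205.2 to 242.7 CPM in the control samples and 214.7 to 277 CPM in TCDD 1 to 3, with 587.8 CPM in TCDD 4. The largest gains in mean CPM were those of mmp9 (57.7 to 91.8, edgeR adjusted p = 0.418) and mmp13a (31.05 to 103, edgeR adjusted p = 0.112). The largest losses were those of coro1a (33.96 to 20.64, edgeR adjusted p = 0.0721) and lyz (17.02 to 8.142, edgeR adjusted p = 0.0038). The log2 fold change was above 0 in 6 of the 13 markers and below 0 in 7, with a median of -0.14. Of these 13 markers 1 fell (lyz), 0 rose and 12 did not pass, beside 5.72% called over all genes. None was at 0 in all libraries, and their part in the caspase values was not tested.

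A list of death receptors, ligands, adaptors and inhibitors also held genes that do not act upstream of the caspases (dffa, dffb, parp1, aifm1 and endog). Its 24 tested genes had a median log2 fold change of 0.01. Beside 5.72% called over all genes, 2 of these 24 rose, 0 fell and 22 did not pass. One was apaf1, and the other was the tumour necrosis factor receptor gene tnfrsf1a. It held 26.1, 30.6, 27.0 and 21.6 CPM in the control samples and 47.4, 57.9, 38.5 and 50.8 CPM in the TCDD samples, without overlap (0.89 ± 0.14, edgeR adjusted p = 0.0050). The call of tnfrsf1a held in all 8 fits that left out 1 sample (at most 0.0230). The second receptor gene, tnfrsf1b, was at 7.74 ± 1.65 and 11.5 ± 1.67 CPM (0.57 ± 0.17, edgeR adjusted p = 0.0755; 0.0380 without Ctrl 2). The ligand genes tnfa and faslg were below the filter, with at most 5 counts in a library. The list's count of 2 was 3 without Ctrl 2 and 1 without Ctrl 3, any of the TCDD samples, or both Ctrl 1 and TCDD 2. The count of all called genes, 1174, was 1854 without Ctrl 2 and 523 to 965 in the other fits named.

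**Figure D3:**
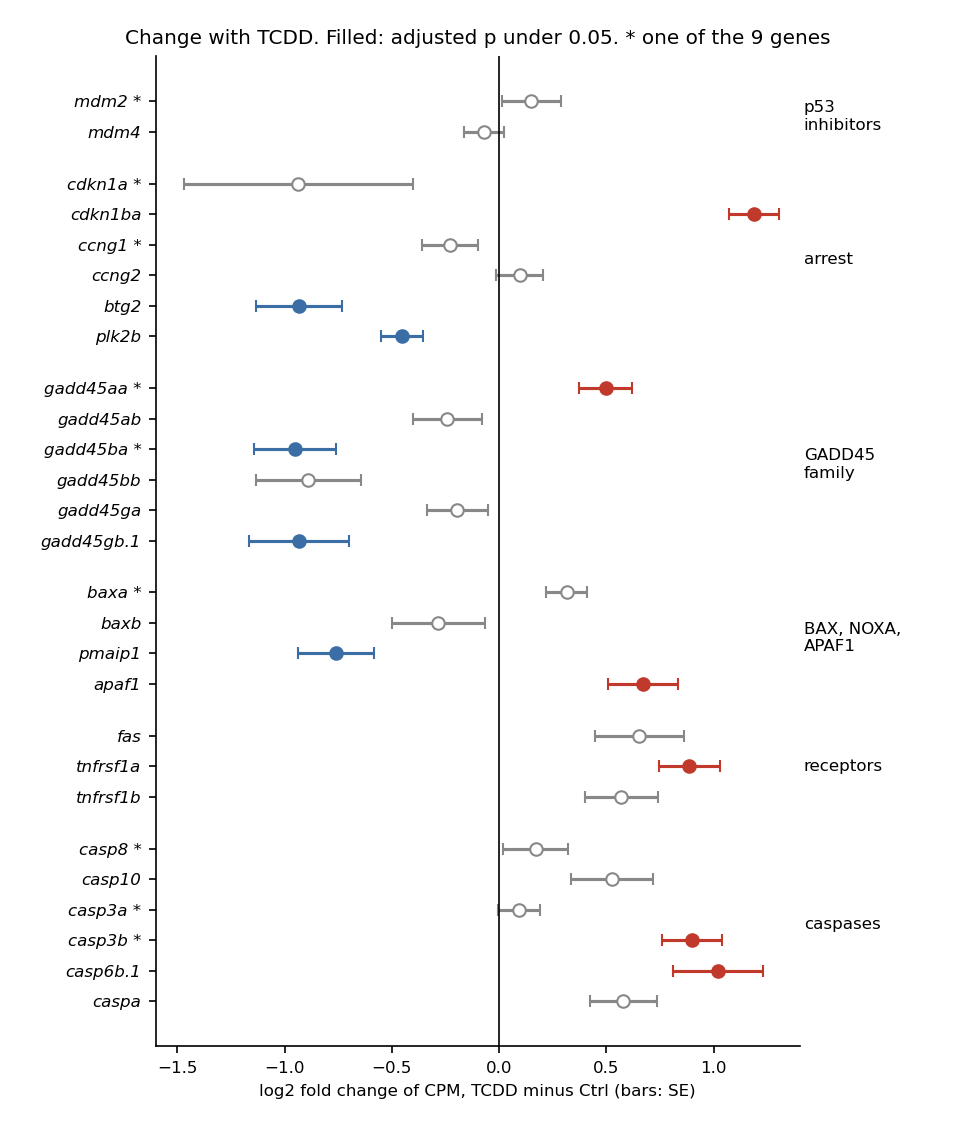
Log2 fold change of CPM, TCDD minus control (horizontal axis), with SE as bars, of the 9 genes (asterisks), their paralogs and other genes named in the text. Filled points passed at an adjusted p under 0.05 (red higher, blue lower in TCDD) and open points did not.

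**Figure D4:**
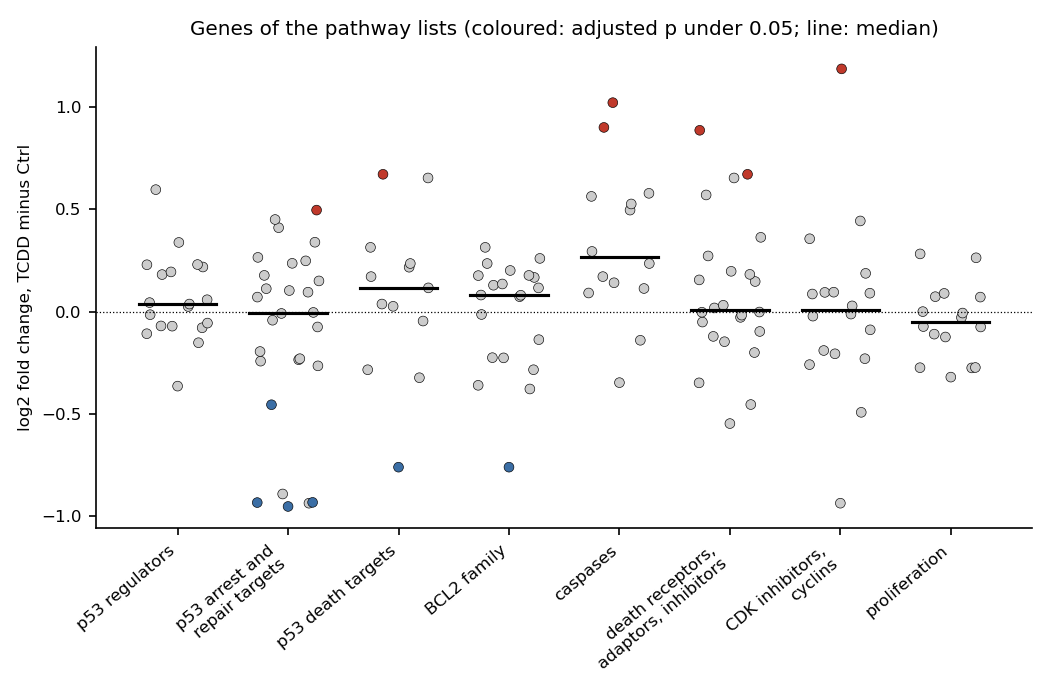
Log2 fold change, TCDD minus control (vertical axis), of the tested genes of 7 lists of the p53 and apoptosis pathways and of markers of dividing cells, with coloured points for genes called higher (red) or lower (blue) and a line at each median. The largest median is that of the caspases (0.26), and no p53 regulator was called.

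Taking each gene of the 7 pathway lists once, 126 were tested, of which 6 rose, 5 fell and 115 did not pass. Of the 117 that were not members, 4 rose and 4 fell, beside the 5.72% called over all genes. The median log2 fold change of the 126 genes was 0.07, and the groups did not overlap in 20 of them. The 14.0% given above for all genes is the share to set beside that number.

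Per transcript length, in deposited TPM, the members ordered in the control samples as ccng1 (233 TPM), gadd45ba (101), cdkn1a (31.9), casp3a (27.0), mdm2 (19.55), baxa (16.9), gadd45aa (16.7), casp3b (6.66) and casp8 (3.91). In the TCDD samples ccng1 (249 TPM) and gadd45ba (66.2) stayed first and second, while the mean of cdkn1a (21.0) came after casp3a (35.0), gadd45aa (28.8), mdm2 (26.4) and baxa (25.9). In TCDD 1, though, cdkn1a (30.46 TPM) lay above gadd45aa (29.9) and baxa (24.46). In TCDD 2 it (24.41 TPM) lay above mdm2 (23.57) and baxa (24.25). The place of cdkn1a after gadd45aa, mdm2 and baxa is thus not resolved. From cdkn1a to gadd45aa the ranges of neighbours over the 4 control samples overlapped, as did those of casp3b and casp8. Within each control sample, though, casp3a lay above mdm2, mdm2 above baxa, and casp3b above casp8. The order of cdkn1a and casp3a turned in Ctrl 4 (13.5 and 25.8 TPM). That of baxa and gadd45aa turned in Ctrl 3 (16.45 and 20.15 TPM), so these 2 steps are not resolved. The ranges of gadd45ba (77.1 to 125 TPM) and ccng1 (210 to 247 TPM) stood apart from each other and from the rest.

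The called members were compared with other genes of at least 5 CPM by the Pearson r of log2(CPM + 1) over the 8 samples, and by r of the deviations from the group means. These are descriptions, since the libraries and the exposure are shared. The r over the 8 samples takes in the difference between the groups, so genes chosen by it tend to change as the member does. The genes most like gadd45ba were jun (r = 0.996, deviations 0.985), jdp2b (0.979 and 0.929) and ier5 (0.978 and 0.936). The first 2 encode factors of the AP-1 group, and jun and ier5 are known as immediate early genes. Of them jun (log2 fold change -0.79 ± 0.17, edgeR adjusted p = 0.0203) and ier5 (-0.45 ± 0.11, edgeR adjusted p = 0.0304) fell with TCDD, and jdp2b did not pass (-2.20 ± 0.53, edgeR adjusted p = 0.0575).

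For casp3b the most alike genes were the kinase gene nuak2 (r = 0.985, deviations 0.897), lrrc58a (0.985 and 0.866) and golga3 (0.984 and 0.914), each of which rose (edgeR adjusted p = 0.000476, 0.0013 and 0.0321). By deviations, a ranking added after the values were seen, slc4a7 was the most alike (0.989) and did not pass (edgeR adjusted p = 0.0813). For gadd45aa the genes most alike over the 8 samples were brd2a (0.981 and 0.926), rhov (0.975 and 0.907) and fam222bb (0.967 and 0.863). Chosen after its values were seen, cdkn1a was most like the peptide transporter gene slc15a1a (0.994 and 0.992), the filamin gene flnca (0.986 and 0.986) and the helicase gene recql5 (0.983 and 0.978). None of these 3 passed the test of TCDD against control (edgeR adjusted p = 0.183 to 0.387).

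Among the members themselves, r between the deviations from the group means ran from -0.828 to 0.711, again as a description of 8 shared libraries. Of the classical p53 targets, cdkn1a had deviations that went with those of mdm2 (0.666) and ccng1 (0.409) and against those of baxa (-0.694). They went as closely with those of casp8 (0.65), and also with gadd45aa (0.374). With casp3a (-0.495), casp3b (-0.281) and gadd45ba (-0.159) r was negative. The plain r of cdkn1a and mdm2 over the 8 samples was 0.361. The deviations of casp3b went against those of gadd45ba (-0.761), as their group means did, and ccng1 went against casp3a (-0.828). Other pairs did not follow the group means. The deviations of baxa went with those of gadd45ba (0.711) and against those of casp3b (-0.385), although baxa and casp3b were both higher and gadd45ba lower in TCDD samples. For gadd45aa, r was -0.346 with gadd45ba and 0.381 with casp3b.

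**Figure D5:**
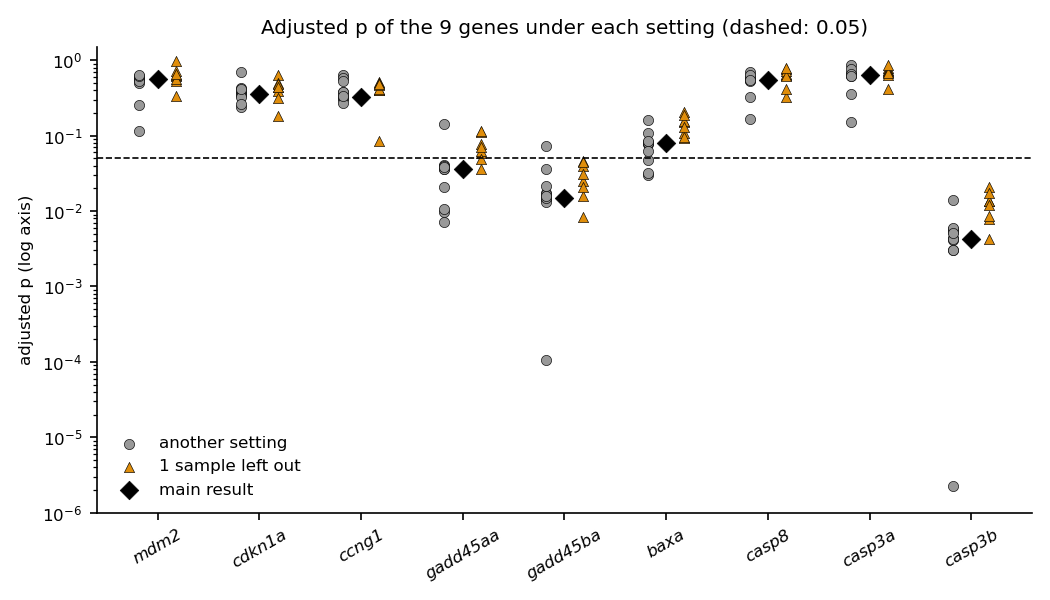
Adjusted p (vertical log axis, dashed line at 0.05) of the 9 genes in the main result (diamonds), in 8 fits that leave out 1 sample (triangles) and in 11 other settings of filter, scaling, tool or samples (circles). All values of casp3b lie under 0.05, gadd45aa crosses it in 6 fits without 1 sample, and mdm2, cdkn1a, ccng1, casp8 and casp3a lie above it in each setting shown, which leave out the fit with replicate numbers as a term.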

How the data were processed

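Per the submitters' processing notes the authors used Bowtie2 and GRCz11, and a quantifier and an annotation were not given in the sources used. The authors deposited estimated counts without normalization, and TPM and FPKM values scaled for length and library size, per the file headers. Total estimated counts were 14048563 to 15183023 per library, and 3 counts, taken as the floor, were 0.1976 to 0.2135 CPM. Rounded counts entered edgeR 4.0.16, run in R 4.3.3, with these settings (filterByExpr, TMM factors, robust quasi-likelihood F-test, treatment as the term), checked first on counts with known changes. Each SE is the size of the log2 fold change divided by the root of F. Gene CPM use TMM-scaled library sizes, and summed CPM of markers use library size alone. The TMM factor was 0.8253 in Ctrl 1 and 0.9716 to 1.0946 in the other samples, so scaling raised the gene CPM of Ctrl 1 most. FPKM served to imply transcript lengths. Alternatives used DESeq2 1.42.0, limma 3.58.1 (voom, and log2(TPM + 0.1)), other factors, filters, thresholds, length offsets (span 0.3), a replicate block and left-out samples. Shares of paralogs were compared by exact permutation tests. Figures used matplotlib 3.10.9.

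The members, lists and rules were chosen with earlier results of these data known. Of 294 list entries 285 were matched to the gene symbols of the deposited data. A further 2 were matched by synonym through a gene table of another assembly, so no coordinates are given. Named were all members and their paralogs, called genes of the lists and up to 4 genes with the smallest p in each. Sequences were not used here. Some genes that this rule names are not reported here.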

Additional observations from a re-analysis of the deposited data

Results flagged for a closer look

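In 74 groups of 4 samples (control and TCDD for each named gene but cyp1a) the highest or lowest sample was set against the rest of its group, and 3 stood apart by a gap that, as a part of the range, passed the 95% critical value of Dixon's test (0.838, 0.841 and 0.863 of the range). About 1 group in 20 does so by chance. For mdm2, Ctrl 1 (36.59 CPM) lay above the other control samples (33.05 to 33.63 CPM), but in TPM it was the lowest of them (15.94 TPM). For gadd45aa, Ctrl 3 (20.13 CPM) lay above the other control samples (15.30 to 16.06 CPM). For usp7, TCDD 2 (52.03 CPM) lay above the other TCDD samples (48.62 to 49.09 CPM).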

How the results depend on the processing

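For the 9 members and the other named genes, 740 of the values recomputed under an alternative kept their direction and their side of the threshold, 30 newly passed, 52 no longer passed and 12 changed sign. The causes were not tested.

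The count of 1174 changed genes (614 higher, 560 lower) was 1987 (937 and 1050) with DESeq2, 327 (191 and 136) at a threshold of 0.01, 2070 (995 and 1075) at 0.10 and 616 (338 and 278) without both Ctrl 1 and TCDD 2. With library size alone it was 1309 (937 higher, 372 lower), so 71.6% of calls were higher in place of 52.3%. With limma on log2(TPM + 0.1) it was 1501 (1325 and 176), 88.3% of them higher. Leaving out 1 sample gave 523 to 1854 (294 to 682 higher, 229 to 1172 lower).

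Of the members, 1 was called at 0.01 and 1 without both Ctrl 1 and TCDD 2, and 2 to 3 without 1 sample. The arrest and repair targets had 0 calls at 0.01, 0 without both samples, 3 with library size alone, 2 with TPM and 1 to 5 without 1 sample. The death targets had 0 at 0.01, 4 at 0.10, 4 with TPM, 1 with length offsets, 1 without both samples and 0 to 2 without 1 sample. The BCL2 family had 4 with DESeq2, 0 at 0.01, 3 at 0.10, 0 with length offsets and 0 to 3 without 1 sample. The caspases had 1 at 0.01, 4 with library size alone, 4 with TPM and 2 to 3 without 1 sample. The receptors, adaptors and inhibitors had 1 at 0.01, 4 at 0.10, 1 without both samples and 1 to 3 without 1 sample. The p53 regulators had 1 with TPM and 0 to 1 without 1 sample, and the CDK inhibitors and cyclins had 2 with TPM and 1 in each fit without 1 sample.

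The sign turned on the TPM scale for ccng1 (0.096), cdkn1ca (0.059), baxb (0.064), casp8l1 (0.201), gadd45ga (0.116), gadd45ab (0.105) and mdm4 (0.246), and with library size alone for casp8l1 (0.008) and mdm4 (0.056). It also turned for casp8l1 without both samples (0.034) and without Ctrl 1 (0.139) or TCDD 1 (0.002). Without 1 sample casp8l1 ran from -0.397 to 0.139.

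Between samples that share a number, r of the deviations was -0.3153, -0.2276, 0.1054 and 0.2955 for numbers 1 to 4. The highest r was that of Ctrl 1 with TCDD 2 (0.5472), the samples that lay apart. These values over all genes cannot decide whether the numbers pair the samples, because those outlying samples weigh on them. A fit with the replicate block called 1347 genes, among them cdkn1a (-0.953, edgeR adjusted p = 0.00358) and gadd45bb (0.00655) but not gadd45aa (0.0579), and 2 CDK inhibitors and cyclins. Of the TCDD samples, TCDD 3 and TCDD 4 correlated best with the control sample of their own number, and TCDD 1 and TCDD 2 did not. The members had 85 to 5867 counts per library, and the part of counting error in their spread was not tested.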
